A study of Mus musculus with 120 samples.

Results

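The genes described here are the 10 AP-1 genes Jun, Junb, Jund, Fos, Fosb, Fosl1, Fosl2, Batf, Batf3 and Atf3, chosen by name from the 46078 gene identifiers counted in 120 libraries, each of 1 mouse group 2 innate lymphoid cell (ILC2). ILC2s were isolated from pooled mesentery of wildtype C57BL/6 mice as lineage-negative cells positive for c-Kit and Sca-1, expanded in culture with IL-2, and recovered cell by cell under live imaging of cytokine secretion. The secreted cytokine that timed the recovery, IL-13 or IL-5, is called the index, and each index has 60 cells in 6 states. Per index there were 5 pre-stimulation cells, which received no treatment. The other states had 11 cells each, all stimulated with IL-2 and IL-33. Transition cells were taken 30, 60 or 90 min after the onset of secretion of the index cytokine. Activated cells secreted it at a later, common time, and silent cells showed no secretion of it by then. The labels describe pooled mesentery and tie no cell to an animal or a culture.

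AP-1 is a dimeric transcription factor whose subunits pair through a basic leucine zipper (bZIP). Jun proteins pair with each other or with Fos proteins, whereas Batf and Batf3 lack the activation domain of Fos, pair mainly with Jun proteins, and bind composite DNA sites together with IRF4 or IRF8. Fos, Fosb, Jun, Junb and Atf3 are classical immediate early or stress-response genes, and IL-33, the alarmin used here, signals through NF-kB and the p38 and JNK kinases that act on AP-1. In lymphocytes Batf is known as a factor of type 2 and effector responses.

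The sequences just upstream of 3 members are shown because 2 of them, Batf and Junb, held most AP-1 reads, whereas Fos was almost without reads. They were read 5' to 3' on the gene's strand from the RefSeq windows of GRCm38.p6, which gave a window for 9 of the 10 members (not Fosl1), and annotated exon bases were left out. Capitals mark the letters found by the motif search described next.
Batf, chr12:85686470-85686668, plus strand: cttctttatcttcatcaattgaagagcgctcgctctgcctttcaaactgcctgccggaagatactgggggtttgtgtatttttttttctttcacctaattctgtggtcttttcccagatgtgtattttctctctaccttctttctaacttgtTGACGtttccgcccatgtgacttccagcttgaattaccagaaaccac
Junb, chr8:84978749-84978998, minus strand: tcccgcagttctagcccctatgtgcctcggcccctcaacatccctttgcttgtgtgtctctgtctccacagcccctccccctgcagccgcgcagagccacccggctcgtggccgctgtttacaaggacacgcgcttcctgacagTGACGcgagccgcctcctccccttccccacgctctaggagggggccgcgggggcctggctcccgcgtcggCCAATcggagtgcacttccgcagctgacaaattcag
Fos, chr12:85473640-85473889, plus strand: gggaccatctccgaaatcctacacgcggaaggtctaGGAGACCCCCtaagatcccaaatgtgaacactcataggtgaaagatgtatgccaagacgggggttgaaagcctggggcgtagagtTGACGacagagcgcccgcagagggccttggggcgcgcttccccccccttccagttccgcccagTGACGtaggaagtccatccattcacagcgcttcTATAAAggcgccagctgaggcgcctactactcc
AP-1 sites of the form TGANTCA were in the 250 bases before the RefSeq start of 0 of the 9 members and in 6.75% of all 32851 RefSeq windows. The longer form TGACNTCA, which includes the cAMP response element (CRE), was in the window of Jun alone and in 7.49% of all windows. A shorter CRE form, TGACG, was in the windows of 5 members (Junb, Fos, Fosb, Batf and Atf3) and in 17.8% of all windows. In Batf it began 98 bases, and in Junb 106 bases, before the RefSeq start, which in both genes is not the gene end of the annotation whose coordinates are given with their levels. Fos held it at 129 and at 66 bases before its RefSeq start, together with a TATAAA 33 bases before it. CCAAT was in Jun and Junb and in 33.8% of all windows, and a kappaB motif was in Fos, Fosb and Fosl2 and in 7.25%. A GAS motif of STAT factors, TTCNNNGAA, was in Batf3 alone and in 7.02%. Both strands were searched, TGACG lies inside TGACNTCA where N is G, and a match of letters says nothing of a factor being bound.

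Levels are reads of a gene per 1000000 gene reads (CPM), from the summed reads of a group's cells, with exact 95% Poisson intervals. The libraries carry no molecular identifiers, so intervals and zero limits cover counting error only. The zero limit is 3 reads, which lies below the upper end of the exact interval, and a ratio given as at least so many fold is set against it without the counting error of the other group. Since no cell is tied to an animal or a culture, a group counts as 1 sample, and no significance test was made. A ratio is instead read against its counting interval, the range on leaving out each cell in turn, both dates in the sample titles, and whether cells of the groups overlap. The 2 indexes share no title date, so a difference between them cannot be told apart from the date, and pre-stimulation cells come from the first date of each index only. A ratio of 4-fold or more is described as past the fold limit, among the 6620 genes whose mean over the 12 groups reached 10 CPM, including 6 members (Jun, Junb, Jund, Fosl1, Fosl2 and Batf). The other 4 members, Fos, Fosb, Batf3 and Atf3, lay below that minimum and are described by their cells.

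Cells held a median of 254001 gene reads (range 65 to 785198). A total of 6 cells lay under 84667 reads, 4 of them with the IL-5 index. Their reads are in the sums, but cell ranges below leave them out. The number of genes detected in cells thinned to 100000 reads had group medians from 1900 in IL-13-indexed pre-stimulation cells to 3016 in IL-5-indexed activated cells, so it was lowest in a state in which AP-1 reads were also few. All 12 ILC2 marker genes listed had reads in the data (summed 6167 to 14072 CPM per group). Of the T cell markers, 3 of 6 had reads, with Cd4, Cd8a and Cd8b1 at 0, and their sum was highest before stimulation (1128 and 1195 CPM with IL-13 and IL-5 as index) and 0 to 523 CPM elsewhere. B cell markers (0 of 4), myeloid markers (2 of 5, up to 38.3 CPM), mast cell markers (2 of 4, up to 326 CPM, with Mcpt4 and Cma1 at 0) and stromal or adipocyte markers (1 of 4, up to 72.6 CPM) were low or missing. The part of depth and of these genes in the results was not tested.

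Of all 57390 AP-1 reads, 80.2% were Batf and 13.1% Junb. Jund gave 1514 reads, Jun 940, Fosl2 600, Fosl1 452, Batf3 289, Atf3 48, Fos 5 and Fosb 3. Libraries were made from the 3' ends of transcripts and reads were not divided by length, so these are shares of reads and not of protein. A Batf read was present in 104 of the 120 cells, a Junb read in 100 and a Jund read in 100. Every other member was found in 22 cells or fewer. Cells thinned to equal depth held reads of a median of 3 to 3.5 members in all groups except pre-stimulation cells (2 with the IL-13 index and 1 with the IL-5 index) and IL-13-indexed silent cells (1).

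**Figure D1:**
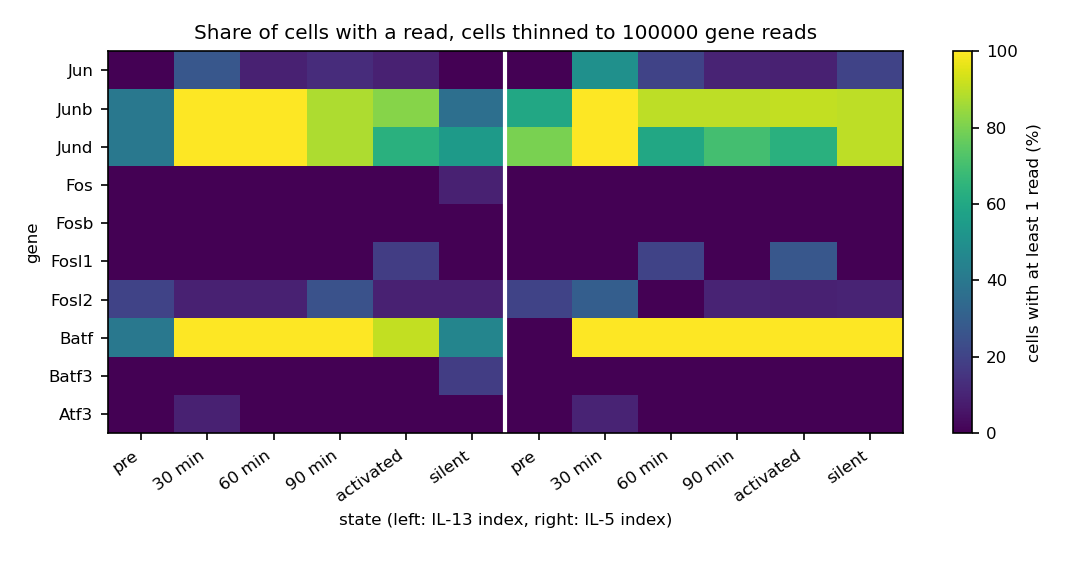
Share of cells with at least 1 read (colour, %) for each of the 10 genes (rows) in the 12 groups (columns), after thinning every cell to 100000 gene reads. Batf, Junb and Jund are bright across transition cells of both indexes, and the other 7 genes are dark almost everywhere.

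Batf (chromosome 12, 85686669 to 85709087, plus strand of GRCm38), a subunit that pairs with Jun proteins, was low (IL-13 index) or without reads (IL-5 index) before stimulation and among the most abundant transcripts at 30 min. In the IL-13 index the 5 pre-stimulation cells read 244, 0, 0, 0 and 269 CPM. At 30 min the lowest, median and highest cells were at 654, 2673 and 6335 CPM, so every 30 min cell lay above every pre-stimulation cell. The group level was 122 CPM (95% interval 101 to 147) before stimulation and 3203 CPM (3136 to 3271) at 30 min. The log2 ratio was 4.71 (4.45 to 4.98), 26.2-fold, with a leave-one-out range of 4.43 to 5.32 and 4.36 in the first title date. At 30 min Batf ranked 31st of all genes by CPM with the IL-13 index and 54th with the IL-5 index. All 5 IL-5-indexed pre-stimulation cells had 0 Batf reads, where 3 reads of the group would be 2.47 CPM and the exact interval reached 3.04 CPM. With 5 cells, the exact interval of the share of cells with a read reached 52.2%. At 30 min the deep cells of that index were at 614, 2489 and 6080 CPM (lowest, median and highest) and the group at 2277 CPM (2227 to 2327). Set against 3 reads, this is 920-fold higher than before stimulation, and the lower end of the counting interval of the log2 ratio was 9.55.

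Batf was lower at 60 and 90 min than at 30 min. In the IL-13 index 60 min cells were at 2033 CPM and 90 min cells at 2110 CPM, and with the IL-5 index at 1519 and 1723 CPM. The log2 ratio of 90 to 30 min was -0.60 (IL-13) and -0.40 (IL-5), under the fold limit in both, but 0.047 for IL-5-indexed cells of the second title date, and cells at 30 and 90 min overlapped. Activated cells were lower, at 983 CPM (IL-13) and 1201 CPM (IL-5), with log2 ratios to 30 min of -1.70 and -0.92, and their cells overlapped with 30 min cells. With the 12 groups ordered by level, 10 of the 11 neighbouring pairs differed in mean log2(CPM + 1) by less than the larger SD between cells. The pair beyond that spread was the silent cells, at 949 CPM with the IL-5 index and 230 CPM with the IL-13 index.

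Silent cells of the 2 indexes stood apart in Batf. All 10 deep IL-5-indexed silent cells had Batf reads, from 319 to 1877 CPM with a median of 945. In the IL-13 index 5 of 11 silent cells had any, at 617, 85.5, 1386, 120 and 499 CPM, and the median cell was at 0. By title date the silent level with the IL-13 index was 508 CPM on the first and 84.2 CPM on the second. The log2 ratio of activated to silent cells was 2.09 (1.97 to 2.22) with the IL-13 index, but 0.61 for cells of the first date and 3.73 for those of the second. Without activated cell 7 it was 1.88, which is under the fold limit. With the IL-5 index it was 0.34 (0.27 to 0.41), and the cells overlapped in both indexes. Of the 5 IL-13-indexed silent cells with Batf, Il13 was read in 1 and Il5 in 5, and of the 6 without Batf these counts were 0 and 5. Among the 10 deep IL-5-indexed silent cells, 8 had an Il13 read and 9 an Il5 read. Activated cells of the IL-13 index included 1 cell without a Batf read, and the other 10 reached up to 2069 CPM.

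**Figure D2:**
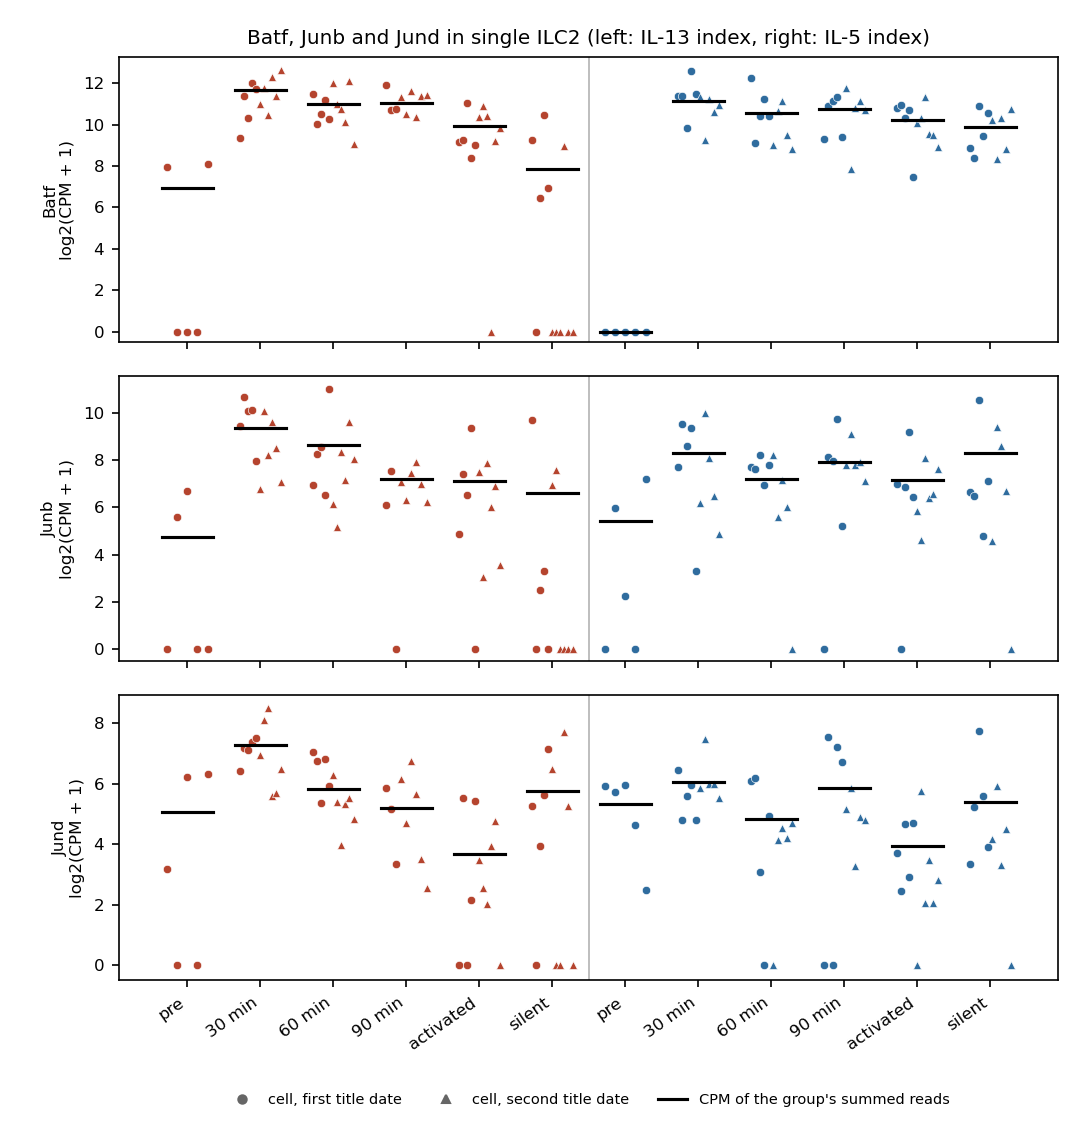
Batf, Junb and Jund in single cells above the depth limit, as log2(CPM + 1) on the vertical axis, by state and index, with circles and triangles for the first and second title date and black lines for the level of the group's summed reads. Batf lies at 0 in all 5 IL-5-indexed pre-stimulation cells and at 614 CPM or more in every 30 min cell, and IL-13-indexed silent cells split into cells at 0 and cells with reads.

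Junb (chromosome 8, 84974484 to 84978718, minus strand), a Jun protein gene, had its highest level at 30 min in each index, though IL-5-indexed silent cells lay close to it. In the IL-13 index pre-stimulation cells read 0, 47.4, 103, 0 and 0 CPM, and 30 min cells 109, 684 and 1605 CPM (lowest, median and highest). The groups did not overlap. The group level was 25.9 CPM (16.8 to 38.3) before stimulation and 655 CPM (625 to 687) at 30 min, then 398 at 60 min, 148 at 90 min, 137 in activated and 97.1 in silent cells. The log2 ratio of 30 min to pre-stimulation was 4.66 (4.09 to 5.29), and 6.03 without pre-stimulation cell 3. For the IL-5 index pre-stimulation cells read 0, 62.0, 3.78, 0 and 145 CPM, and deep 30 min cells ranged from 9.05 to 1005 CPM around a median of 240, so the groups overlapped. The level was 42.1 CPM before stimulation and 315 CPM at 30 min, a log2 ratio of 2.90 (2.50 to 3.34), with a leave-one-out range of 2.46 to 3.97. At 60 and 90 min the level was 146 and 242 CPM, and in activated cells 143 CPM.

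Activated cells had less Junb than 30 min cells. The log2 ratio was -2.25 (-2.41 to -2.10) when IL-13 was the index. With IL-5 as index it was -1.14 (-1.29 to -0.99), under the fold limit. Activated cells reached 656 and 582 CPM (IL-13 and IL-5 index), so they overlapped with 30 min cells in both indexes. Silent cells of the IL-5 index were at 312 CPM, about the 30 min level, but 42.5% of those reads came from cell 3 at 1503 CPM and the median deep cell was at 101 CPM. All 11 neighbouring pairs of groups in the order of Junb levels differed by less than the spread between cells. Prdx2, on the opposite strand, overlaps the 3' end of Junb by 351 bases, and the strand setting of the counting is not given in the sources used here. Prdx2 ran from 49.8 to 254 CPM over the groups. It was highest in IL-13-indexed silent cells, where Junb was low, and lowest in IL-13-indexed pre-stimulation cells, where Junb was lowest too. The part of Prdx2 in the Junb counts was not tested.

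Jund, which is expressed in many resting cells, had a smaller ratio of 30 min to pre-stimulation cells than Junb, and its own lowest level in activated cells. In the IL-13 index pre-stimulation cells lay between 0 and 78.7 CPM with a median of 8.13, and 30 min cells between 47.1 and 359 with a median of 138. The group level was 32.1 CPM (21.8 to 45.6) before stimulation, 155 CPM (140 to 170) at 30 min, 55.8 at 60 min, 36.0 at 90 min, 11.9 (8.42 to 16.3) in activated cells and 53.6 in silent cells. Cells at 30 min and activated cells, of which the highest was at 45.0 CPM, did not overlap. Activated against 30 min cells gave a log2 ratio of -3.70 (-4.22 to -3.22), or -2.998 and -4.37 in the first and second title date. With the IL-5 index the levels were 39.6 CPM before stimulation, 65.0 at 30 min, 27.2 at 60 min, 57.4 at 90 min, 14.5 in activated and 41.4 in silent cells. There the log2 ratio of activated to 30 min cells was -2.17 (-2.62 to -1.74), with overlapping cells, -1.56 in the first date and -1.83 without 30 min cell 7, both under the fold limit. The pair of highest levels, 155 and 65.0 CPM, differed beyond the spread between cells, and the other 10 neighbouring pairs did not.

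Jun was found in few cells. It had 0 reads in pre-stimulation cells of both indexes (3 reads would be 3.11 CPM for IL-13 and 2.47 CPM for IL-5) and in IL-13-indexed silent cells. At 30 min, 6 IL-5-indexed cells were at 8.65 to 557 CPM, and 4 IL-13-indexed cells at 6.00 to 127 CPM. The group levels were 129 CPM (117 to 141) and 28.4 CPM (22.4 to 35.5). Set against 3 reads before stimulation, they were 52.1-fold and 9.13-fold higher. The log2 ratios of 5.70 and 3.19 became 4.95 without IL-5-indexed 30 min cell 8 and 2.06 without IL-13-indexed 30 min cell 9. In activated cells 98.9% of Jun reads of the IL-13 index came from cell 7, and without it 1 read was left. The 2 Jun-positive IL-5-indexed silent cells, at 394 and 119 CPM, were both of the second date. They held Il13 at 5162 and 381 CPM and Il5 at 6576 and 37.1 CPM.

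Reads of the Fos genes were rare, and each of them was seen in a few cells only. Fos had 5 reads in all, from silent cell 1 of the IL-13 index. That cell also had the highest Junb of its group (830 CPM), Batf at 617 CPM and all 11 Il13 reads of the group. Fosb had 3 reads, in 1 cell at 60 min of the IL-13 index. Over all 120 cells 3 reads would be 0.0967 CPM. Fosl1 (Fra-1) was read in 9 cells: 2 IL-13-indexed activated cells (170 and 108 CPM), 4 IL-5-indexed activated cells (107, 3.07, 527 and 103 CPM), and 3 cells at 60 min of the IL-5 index, where 1 cell at 560 CPM held 95.3% of the reads. All other groups, 30 min cells included, had 0 Fosl1 reads. The level in activated cells was 31.0 CPM (25.2 to 37.7) with the IL-13 index and 65.9 CPM (57.9 to 74.7) with the IL-5 index. Set against 3 reads in silent cells, this was 27.4-fold and 67.4-fold higher. These log2 ratios of 4.77 and 6.07 became 3.92 and 4.65 without activated cell 4 of each index. Ccdc85b overlaps Fosl1 on the other strand by 2767 bases. It held 13.8 and 18.8 CPM in activated cells (IL-13 and IL-5 index), and 44.6 CPM in IL-13-indexed pre-stimulation cells, where Fosl1 was at 0. The part of Ccdc85b in the Fosl1 counts was not tested.

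Fosl2 (Fra-2) was the single Fos gene with reads before stimulation, in 1 of 5 cells of each index (160 and 235 CPM). After stimulation it was in 0 to 3 cells of a group. The highest level was 64.8 CPM at 90 min of the IL-13 index, in cells at 240, 120 and 315 CPM. With all reads of a group in 1 cell, its 30 min to pre-stimulation log2 ratio with the IL-13 index, 0.49 (-0.14 to 1.15), became 3.38 without pre-stimulation cell 2 and -3.21 in the first date. In IL-5-indexed silent cells 1 read was counted against 72 before stimulation, all 72 from 1 cell, a ratio of 0.00549 (log2 interval -12.8 to -4.98).

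Batf3 and Atf3 were each read in 3 cells, Batf3 in 1 state of 1 index and Atf3 in 1 state of both indexes. Silent cells with IL-5 as index had 0 Batf3 reads, with an exact interval up to 1.20 CPM. Batf3, which is best known from dendritic cells, had 289 reads from 3 IL-13-indexed silent cells (617, 429 and 3.82 CPM), all of the second title date and all without a Batf read. The group level was 109 CPM (97.0 to 123), while activated IL-13-indexed cells had 0 reads. Set against 3 reads, silent cells were 116-fold higher, a log2 ratio of activated to silent cells of -6.86. It became -5.53 without silent cell 6, and the first date held no Batf3 read at all. Atf3, a stress-response factor, was read only at 30 min, in 2 cells of the IL-13 index (114 and 20.4 CPM) and 1 cell of the IL-5 index (79.5 CPM), all 3 of the first date. The group levels were 8.59 and 7.04 CPM.

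**Figure D3:**
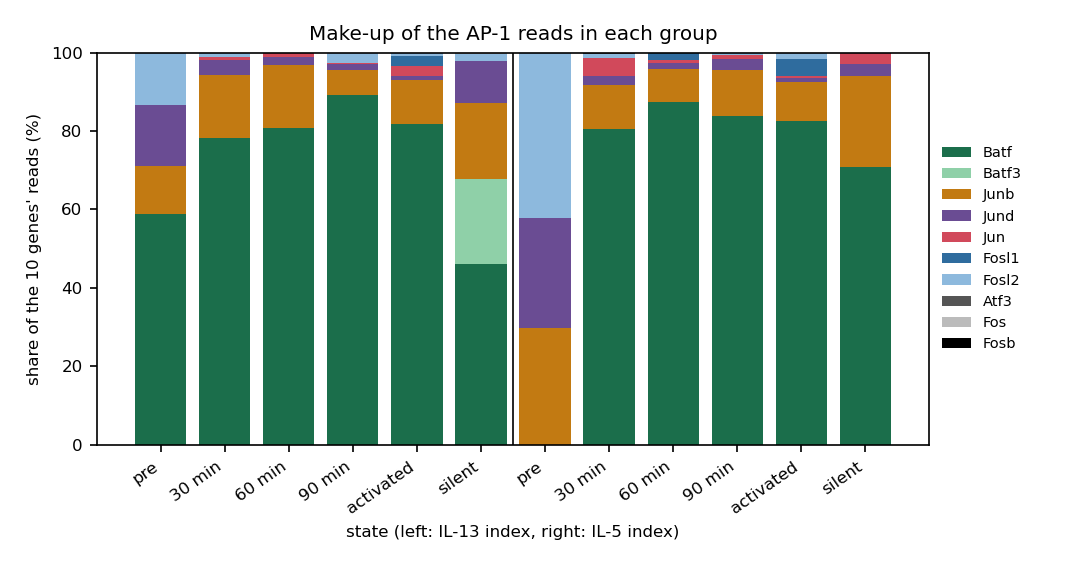
Share of the 10 genes' reads taken by each gene (%, stacked bars from 0 to 100) in the 12 groups. Batf takes 70.8% to 89.3% in every stimulated group except IL-13-indexed silent cells, where it takes 46.0% and Batf3 21.8%, and it takes 0% in IL-5-indexed pre-stimulation cells.

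As a share of AP-1 reads, Batf made up 58.7% (51.6 to 65.6, exact binomial) before stimulation and 78.3% (77.5 to 79.1) at 30 min with the IL-13 index. For the IL-5 index these shares were 0% (up to 2.13) and 80.5% (79.7 to 81.3). Before stimulation only 201 and 171 AP-1 reads were counted. In the IL-5 index Fosl2 took 42.1% of them, from 1 cell, and its mean share over the cells was 13.5%. The summed level of the 10 genes was 208 and 141 CPM before stimulation, 4089 and 2827 CPM at 30 min, 1204 and 1454 CPM in activated cells, and 501 and 1341 CPM in silent cells (IL-13 and IL-5 index).

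The members past the fold limit were counted beside the same share of all genes tested. Fosl1 reached the minimum through 3 groups and was at 0 in the other 9, so it had to lie past the limit where such groups were compared. At 30 min against pre-stimulation 4 of the 6 members tested were past it with the IL-13 index (Jun, Junb, Jund and Batf), when 23.8% of all genes were. With the IL-5 index 3 of 6 were (Jun, Junb and Batf), beside 28.9%. None was lower, beside 18.3% and 16.4% of genes. The members' median log2 ratio was 2.73 and 1.81, with Fosl1, at 0 reads in both groups, entered as the ratio of the 3-read limits, and that of all genes was -0.21 and 0.10. The IL-5 count was 3 to 4, and the IL-13 count 3 to 4, on leaving out 1 cell. Activated against the same pre-stimulation cells gave 4 higher members with the IL-13 index (Jun, Junb, Fosl1 and Batf), beside 25.6%, and 2 with the IL-5 index (Fosl1 and Batf), beside 29.1%, and 0 lower, beside 18.1% and 18.5%. Silent cells against them gave 0 higher members with the IL-13 index, beside 27.3%, and 3 with the IL-5 index (Jun, Junb and Batf), beside 29.0%. Lower were 0, beside 14.5%, and 1, Fosl2, beside 16.3%.

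Activated against silent cells, 3 members were higher with the IL-13 index (Jun, Fosl1 and Batf, beside 14.9%) and 1, Jund, was lower (beside 20.1%). For the IL-5 index 2 were higher (Fosl1 and Fosl2, beside 12.3%) and 1, Jun, lower (beside 15.2%). All 84 Fosl2 reads of the activated cells came from cell 8. Of the 3 with the IL-13 index, 1 was past the limit in the first title date. Against 30 min cells, activated cells had 1 higher member in each index, Fosl1, beside 20.2% (IL-13) and 14.8% (IL-5). Lower were 2 members in each, Junb and Jund with the IL-13 index, beside 17.4%, and Jun and Jund with the IL-5 index, beside 16.4%. From 30 to 90 min, 3 members were lower with the IL-13 index (Jun, Junb and Jund, beside 16.2%) and 1, Jun, with the IL-5 index (beside 13.1%), with 0 higher, beside 18.2% and 16.7%. Of these 3, 1 was past the limit in the second date. Jun at 90 min of the IL-5 index rested on 1 cell of 11 (41 reads).

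Leaving out 1 cell took several of these ratios under the fold limit. Against pre-stimulation cells, Jund at 30 min became 1.94 without pre-stimulation cell 1, Junb in activated cells 1.73 without activated cell 4 and Jun in activated cells -1.53 without activated cell 7, all with the IL-13 index, and Fosl2 in silent cells became -1.76 without IL-5-indexed pre-stimulation cell 2. Between activated and silent cells, Jun became -0.073 without activated cell 7 and Jund -1.53 without silent cell 9 (IL-13), and Jun became -1.25 without silent cell 6 and Fosl2 -0.16 without activated cell 8 (IL-5). The negative values of Jun with the IL-13 index and of Fosl2 are ratios of the 3-read limits, since at most 1 read was left in either group. Between 90 and 30 min Jun became -1.43, Junb -1.97 and Jund -1.83 with the IL-13 index, without 30 min cells 9, 2 and 8, and Jun -1.77 with the IL-5 index without 30 min cell 8. Among ratios that stayed past the limit, Jun and Junb in silent against pre-stimulation cells (IL-5) became 2.75 without silent cell 6 and 2.23 without silent cell 3. Batf against pre-stimulation kept its place past the limit at 30 min and in activated cells of both indexes whichever cell was left out.

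**Figure D4:**
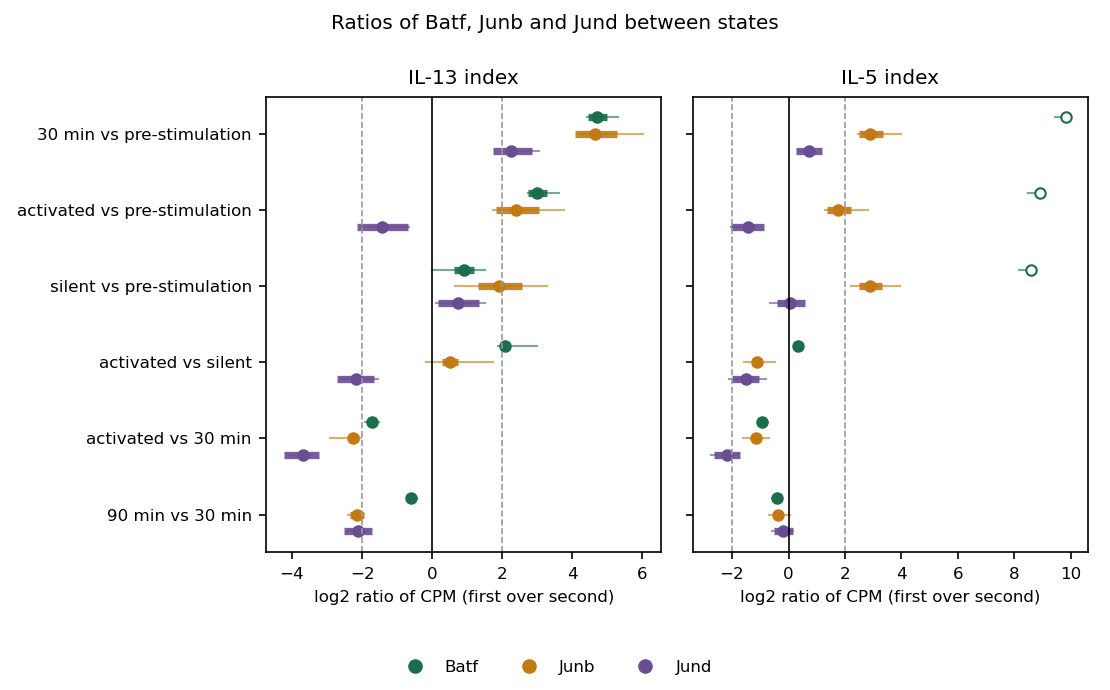
Log2 ratios of CPM for Batf, Junb and Jund (colours) in 6 comparisons per index, with thick bars for the 95% counting interval, thin lines for the range on leaving out 1 cell, open circles for ratios against 0 reads set to 3 reads, and dashed lines at 4-fold. Batf and Junb lie to the right at 30 min against pre-stimulation in both indexes, and Jund lies to the left for activated against 30 min cells.

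Across cells of the same state and title date, the levels of Batf, Junb and Jund, the only members compared, showed no common direction. Pearson's r of Batf and Junb over 5 or 6 cells had a median of -0.07 over 20 such sets (7 positive, range -0.81 to 0.89). For Junb and Jund the median was 0.26 over 21 sets (13 positive), and for Batf and Jund 0.04 over 20 sets (10 positive). Cells of a set share their state and title date, differ in depth, and are few for each r. Over the 12 groups, the genes most like Batf in log2(CPM + 10) were Hacd3 (r = 0.97), Gtpbp4 (r = 0.96) and Cd44 (r = 0.96), among 2655 genes whose mean reached 50 CPM. Those most like Junb were the NF-kB inhibitor gene Nfkbia (r = 0.95), Rrad (r = 0.93) and Nfkbiz (r = 0.92). Nfkbia was at 148 CPM before stimulation and 2994 CPM at 30 min with the IL-13 index, and at 201 and 2186 CPM with the IL-5 index.

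Factors that can bind with Batf include Irf4 and Irf8. In the list of 9 partner factors, 8 were above the minimum, and at 30 min 3 were past the fold limit above pre-stimulation with the IL-13 index and 5 with the IL-5 index, beside 23.8% and 28.9% of all genes, and 1, Ets1, was lower in each, beside 18.3% and 16.4%. Irf8 had 0 reads in pre-stimulation cells of both indexes. It was at 79.6, 218 and 172 CPM at 30, 60 and 90 min of the IL-13 index, with 78.4% of the 30 min and 52.1% of the 90 min reads in 1 cell, and at 351, 115 and 97.9 CPM with the IL-5 index. Activated cells held 33.8 CPM (IL-13, 99.1% from 1 cell) and 1.34 CPM (IL-5). In the IL-5 index Irf8 was read in 10 of 11 cells at 30 min, and with the IL-13 index in 3 of 11. Irf4 had a different order, with 0 reads in IL-13-indexed pre-stimulation and transition cells and 114 CPM (102 to 126) in 6 of 11 activated cells. With the IL-5 index it was at 0 CPM before stimulation, 15.5, 116 and 0.55 CPM at 30, 60 and 90 min, 315 CPM (297 to 333) in 10 of 11 activated cells and 67.8 CPM in 4 silent cells. The 60 min value came to 99.2%, the 30 min value to 96.4% and the silent value to 67.8% from 1 cell.

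Of 22 other bZIP genes listed, 16 were above the minimum. At 30 min against pre-stimulation 7 were higher in each index, beside 23.8% (IL-13) and 28.9% (IL-5) of all genes, and 0 (IL-13) and 3 (IL-5) lower, beside 18.3% and 16.4%. The list's median log2 ratios were 1.31 and 1.56, where those of all genes were -0.21 and 0.10. Jdp2, a repressor of the Jun dimerization type, was at 0 and 4.95 CPM before stimulation and 44.5 and 87.0 CPM at 30 min, in 5 cells of each index. Creb1 led with the IL-13 index (0 to 155 CPM), though in 4 cells only, and Mafg was higher there (0 to 57.2 CPM) but lower with the IL-5 index (325 to 32.4 CPM, log2 ratio -3.33). For the IL-5 index Mafk (0 to 36.3 CPM) and Bach2 (0 to 30.7 CPM) were higher, with 84.5% and 71.6% of the reads in 1 cell. In activated cells against pre-stimulation 6 and 5 were higher, beside 25.6% and 29.1% of all genes, and 1 and 3 lower, beside 18.1% and 18.5%.

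Of 15 upstream kinases, 12 were above the minimum. At 30 min against pre-stimulation 2 were higher and 2 lower in each index, beside 23.8% (IL-13) and 28.9% (IL-5) of all genes higher and 18.3% and 16.4% lower, with median log2 ratios of -0.09 and -0.81. Map2k7, a kinase of JNK, was lower in both (74.7 to 2.61 CPM and 39.6 to 0.84 CPM), and its reads came from 1 and 2 cells before stimulation and from 1 cell each at 30 min. From 30 to 90 min 7 kinases were higher with the IL-13 index and 5 with the IL-5 index, beside 18.2% and 16.7% of all genes, and 1 was lower in each, beside 16.2% and 13.1%. The list's median log2 ratio was then 2.92 and 1.04, and that of all genes 0.27 and 0.21.

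Of 10 immediate early and handling-response genes, 5 were above the minimum, and 3 in each index were past the limit above pre-stimulation at 30 min, beside 23.8% (IL-13) and 28.9% (IL-5) of all genes. Lower were 1 with the IL-13 index, Ier3 (log2 ratio -2.89), and 0 with the IL-5 index, beside 18.3% and 16.4%. The third higher gene was Hspa1b with the IL-13 index and Ier3 with the IL-5 index, with 100% and 99.0% of the 30 min reads in 1 cell. Egr2 was at 0 and 0.82 CPM (1 read) before stimulation and at 220 CPM (203 to 239) in 10 cells and 126 CPM (114 to 138) in 7 cells at 30 min. Nr4a1 was at 0 and 10.7 CPM before stimulation and at 124 and 117 CPM at 30 min. Named after their values were seen, Egr1, Dusp1 and Zfp36, which are often induced with Fos, were each read in at most 2 cells of a group. At 30 min of the IL-13 index Egr1 had 10.1 CPM and Dusp1 2.61 CPM, each from 1 cell. Fos was at 0 reads there. Ier2, also named after its values were seen, was at 201 and 94.9 CPM before stimulation (IL-13 and IL-5 index). At 30 min it was at 281 and 185 CPM, under the fold limit. The 30 min count from the onset of secretion, which the authors saw at latencies spread over several hours of stimulation.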

How the data were processed

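Libraries of transcript 3' ends from 120 single mouse ILC2s were used. For each gene the authors deposited raw counts of reads, obtained with TopHat on GRCm38 and then HTSeq. The annotation release and strand setting are not given in the sources used here, and the submitters' processing notes name TopHat2 with GRCh38 and mm10. Reads that aligned to more than 1 place (28.7% of entries), to no gene (7.42%) or to several genes (1.86%) were outside the counts and were left out. No column of another sample was present. Symbols and positions came from a GRCm38 annotation by identifier, which named 45143 of 46078 identifiers, all 10 members included.

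Index, state and time were read from each sample's source name, and the date from its title. As no label ties a cell to an animal or culture, each group stood for 1 sample and was not tested. Group sums of counts were scaled to CPM. For log2 ratios a group total below 3 reads was raised to 3. Ratios carry the 95% Clopper-Pearson interval of the split of reads, which assumes independent reads. Ratios to 0 reads are thus set against 3 reads and are no lower bounds. Whole-group ratios with 1 to 3 reads are printed without that floor, which values within a title date or on leaving out 1 cell keep. Shares of cells were computed after thinning 113 cells to 100000 reads (7 had fewer). The spread between cells was measured as an SD on the log2(CPM + 1) scale. The members, lists and comparisons were chosen with earlier results of these data known. The members were named throughout, as were up to 3 genes per list and comparison, those with the largest ratio among genes past the fold limit, and the 3 genes most like Batf and Junb. The promoter motifs were chosen after the sequences were seen. The ratio measure was tested on simulated data. Python 3.11.15 with numpy 2.4.6, pandas 2.3.3 and scipy 1.17.1 was used, and scaling factors, the only use of DESeq2 1.42.0 and edgeR 4.0.16, were made in R 4.3.3. The alternatives tried included the cells' mean CPM, TMM and DESeq2 factors, each title date, pooled pre-stimulation cells, a 2-fold limit, other CPM minimums, leaving out each cell, and other detection limits. Cell ranges without the 6 shallow cells, and unthinned numbers of members per cell, were added after the data were seen.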

Additional observations from a re-analysis of the deposited data

Results flagged for a closer look

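Fosl2 in pre-stimulation cells was flagged in both indexes: 1 cell lay far from the other 4. In the IL-13 index 1 of 5 cells was at 160 CPM and the others at 0, and in the IL-5 index 1 of 5 was at 235 CPM and the others at 0. Of 7 sets of cells examined in this way 2 were flagged. Chance flags about 1 in 20 sets of normally spread values, a rate that does not apply here, since any set with 1 cell above 0 and the others at 0 is flagged.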

How the results depend on the processing

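No paired analysis was possible because the labels number no cell across groups and no test was made. Of 24 counts of members past the fold limit, 252 alternatives left 187 within 1.5 times and moved 65; the cause was not tested, except that a lower fold limit or a higher CPM minimum changes what can be counted. With a 2-fold limit, lower members were 1 in both indexes at 30 min against pre-stimulation, 2 in both for activated and 3 (IL-13) and 2 (IL-5) for silent cells against pre-stimulation, 3 for activated against silent (IL-5), 4 for activated against 30 min (IL-13) and 2 for 90 against 30 min (IL-5), and higher members were 4 for activated (IL-5) and 1 for silent (IL-13) against pre-stimulation. The lower members at 30 min (Fosl1) and, in silent cells, Fosl1 in both indexes and Jun with the IL-13 index had 0 reads in both groups, so their ratios are those of the 3-read limits, set by depth, and are no measured differences. With a minimum of 50 CPM, which left 2 of the members, Batf and Junb, 14 counts were 0, 1 or 2. These were 2 higher at 30 min and in activated cells against pre-stimulation (IL-13), 1 higher in activated cells (IL-5), 1 higher for activated against silent (IL-13), and 1 lower for activated and for 90 min against 30 min (IL-13), and 0 in the other 8. With no minimum, higher members were 1 for silent against pre-stimulation (IL-13), and lower members were 2 for activated against silent (IL-13) and 2 for 90 against 30 min (IL-5). In the first title date, activated against silent had 1 higher and 0 lower in both indexes, silent against pre-stimulation 2 higher (IL-13), activated against 30 min 2 higher (IL-13), 90 against 30 min 1 higher (IL-13) and 2 lower (IL-5), and 30 min (IL-13) and activated (IL-5) against pre-stimulation 1 lower. In the second date, 90 against 30 min had 1 (IL-13) and 0 (IL-5) lower. Pooled pre-stimulation cells gave 4 higher for activated (IL-5), 1 lower for activated (IL-13), and 1 higher and 1 lower for silent cells (IL-13). TMM factors and the mean of the cells' own CPM gave 0 lower for activated against silent (IL-13), and the latter 2 lower for 90 against 30 min (IL-5). Leaving out 1 cell gave 1 to 4 higher and 0 to 2 lower for activated against silent in the IL-13 index, 1 to 2 higher and 0 to 2 lower in the IL-5 index, 2 to 4 higher and 0 to 1 lower for activated against pre-stimulation (IL-5), 1 to 2 higher (IL-13) and 1 to 3 lower (IL-5) for activated against 30 min, 0 to 2 lower for 90 against 30 min (IL-5), 0 to 1 higher for 90 against 30 min (IL-13), and 0 to 1 for lower members at 30 min and in activated cells (IL-13), both directions in silent cells (IL-13) and lower members in silent cells (IL-5), all against pre-stimulation.

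Of 216 alternatives for shares of cells with a read 10 moved. Of 72 for a gene's share of AP-1 reads, each the mean of the cells' own shares, 43 lay outside the binomial interval. Of 487 alternatives for member log2 ratios 181 moved outside the counting interval without reversing a ratio past the limit, and 35 in all changed sign. Of these, 28 were of ratios under the fold limit, 15 of them of Fosl2. Batf at 90 against 30 min (IL-5) became 0.047 in the second date, and Fosl2 at 30 min against pre-stimulation (IL-5) reached 3.37 on leaving out 1 cell. The other 7 were of ratios past the limit, and in all 7 at most 1 read was left in either group, so these values are ratios of the 3-read limits, set by depth, and no measured change of direction. Jun in activated against pre-stimulation cells (IL-13) was -0.38 in the first date and -1.53 to 3.45 on leaving out 1 cell, and against silent cells (IL-13) -0.46 and -0.073 to 4.91. Jun in silent against pre-stimulation cells (IL-5) was -0.42, and in activated against silent cells (IL-5) 0.029, in the first date. Fosl2 in activated against silent cells (IL-5) was -0.16 to 4.72 on leaving out 1 cell. Of 255 alternatives for the 34 ratios past the limit, 248 kept their sign and 31 were under 4-fold.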
